A study of Mus musculus with 6 samples.

Results

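Small leucine-rich proteoglycan (SLRP) genes encode secreted proteins of the extracellular matrix, and 9 of them were followed here in mouse tibialis anterior (TA) muscle: Bgn, Dcn, Aspn, Lum, Fmod, Prelp, Kera, Omd and Ogn. They were chosen by name, taking every array probe annotated with one of these symbols, which gave 16 probes of 45281 and 9 genes of 19057. All muscles came from male C57Bl/6J mice that were 3 months old at sampling and wild type as far as the labels say. In 3 muscles an adeno-associated vector of serotype 8 drove overexpression of the transcription factor Prox1 (AAV8-Prox1). The other 3 received the same serotype carrying mCherry, a red fluorescent reporter with a nuclear localization signal (AAV8-NLS-mCherry, called AAV8-mCherry below). The vectors were injected at 8 weeks of age, with the mCherry vector in the contralateral leg, and expression lasted 4 weeks. Which muscles share a mouse cannot be read from the labels, and the promoter of the vectors is not given in the sources used here.

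A SLRP has a core of leucine-rich repeats that curves around collagen, and most members carry 1 or more glycosaminoglycan chains. The proteins bind collagen fibrils and help to set fibril thickness and spacing, and several also bind growth factors, among them TGF-beta. Class I (Bgn, Dcn, Aspn) and class II (Lum, Fmod, Prelp, Kera, Omd) differ mainly in sequence and chain type, and Ogn belongs to class III. In skeletal muscle these genes are mostly expressed by fibroblasts and related cells of the connective tissue between fibres, and not by the fibres themselves.

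The genes lie in few places of the genome. In the mouse assembly GRCm38.p6, Dcn (chr10:97479500-97518163), Lum (chr10:97565501-97572703) and Kera (chr10:97606962-97613688) lie side by side. Aspn (chr13:49544443-49567565), Omd (chr13:49582462-49592612) and Ogn (chr13:49608015-49624501) form another group, Prelp (chr1:133910304-133930102) and Fmod (chr1:134037254-134048280) are close neighbours, and Bgn (chrX:73483601-73495936) stands alone.

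The sequences before the start sites of Bgn and Fmod are shown because these genes had the highest and the lowest log2 fold change of the members above background. Each window holds the 250 bases before the start of the gene in RefSeq (GRCm38.p6), read on the plus strand, chrX:73483351-73483600 for Bgn and chr1:134037004-134037253 for Fmod. Capitals mark the matches to 5 motifs searched on both strands: the TATA box TATAAA, the CCAAT box CCAAT, the GC box GGGCGG, the SMAD core CAGAC and the NFAT core GGAAA.
Bgn: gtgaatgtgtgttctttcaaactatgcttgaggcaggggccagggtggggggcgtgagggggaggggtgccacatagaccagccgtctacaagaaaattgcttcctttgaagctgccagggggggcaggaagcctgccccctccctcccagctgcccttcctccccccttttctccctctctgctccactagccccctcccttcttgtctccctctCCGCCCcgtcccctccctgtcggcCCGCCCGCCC
Fmod: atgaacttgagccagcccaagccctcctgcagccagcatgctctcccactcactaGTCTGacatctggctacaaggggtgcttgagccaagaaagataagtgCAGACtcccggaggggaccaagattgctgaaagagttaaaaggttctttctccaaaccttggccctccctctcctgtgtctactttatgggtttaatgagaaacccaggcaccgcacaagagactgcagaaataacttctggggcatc
The Bgn window held 3 GC boxes, all on the minus strand, of which the 2 nearest to the start overlap each other, and no match to the other motifs. The Fmod window held 2 SMAD cores, 1 on each strand, and no other match. GC content was 64.4% in the Bgn window and 51.2% in the Fmod window, with a median of 52.4% over 32851 windows of the same length. A GC box was present in 32.7% of those windows and a SMAD core in 42.2%, so both kinds of match are common. A TATA box was present in 12.4%, a CCAAT box in 33.8% and an NFAT core in 55.6%. Of the members, 7 had an entry in the promoter table, and Dcn and Lum were the 2 without one.

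Expression was measured with 1 Illumina array per muscle. Values are log2 signals that the authors had quantile-normalized. A log2 signal of 7 was taken as the limit above background. The 2 groups were tested with limma (moderated statistics), and an adjusted p under 0.05, by the Benjamini-Hochberg method over all probes, was the threshold. The p-values rest on the spread between 3 muscles per group, moderated by limma over all probes, which limits the precision. Muscles were not paired in the test, since which of them share a mouse is not known. Replicate arrays of a group correlated at 0.990 to 0.994 and arrays of different groups at 0.967 to 0.974. The fibre genes Acta1, Ckm and Pvalb were well above background in all muscles. Both Prox1 probes stayed at background, at 6.54 ± 0.05 and 6.49 ± 0.06 in AAV8-Prox1 muscle against 6.58 ± 0.04 and 6.55 ± 0.06 in control muscle (SD, n = 3 each), so they could not check the labels.

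Of the 9 SLRP genes, Bgn and Lum rose with AAV8-Prox1, none fell, and 7 did not pass the threshold. By unadjusted p under 0.05 in the same limma fit, 3 were higher and 0 were lower. Over all genes 5.23% rose and 4.21% fell (9.44% in all). Above background, where 6 of the 9 members were measured in both groups, 12.9% of 6734 genes rose and 11.3% fell (24.3% in all). The log2 fold change was above 0 in 5 of these 6 members and in 52% of those genes. The median log2 fold change was 0.23 over the 9 members and 0.46 over the 6 above background, beside 0 over all genes and 0.01 over genes above background. With this few members, the 2 calls are a description of these genes and not of the family against other genes.

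**Figure D1:**
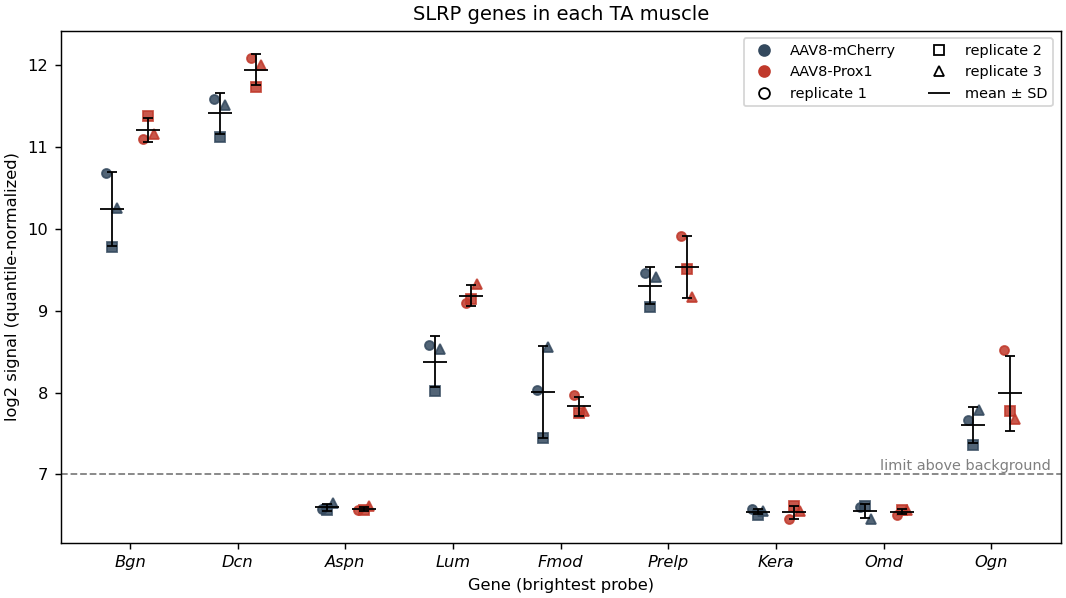
Log2 signal (quantile-normalized, vertical axis) of the brightest probe of each SLRP gene in each TA muscle, with bars for the mean ± SD of 3 muscles and a dashed line at the limit above background. The AAV8-Prox1 muscles lie above all control muscles for Bgn, Dcn and Lum, overlap them for Fmod, Prelp and Ogn, and Aspn, Kera and Omd lie below the line in every muscle.

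Bgn encodes biglycan, which in its full form carries a pair of chondroitin or dermatan sulfate chains, binds collagen and, in muscle, links to the dystrophin-associated complex at the fibre surface. Its log2 signal was 11.10, 11.38 and 11.16 in the AAV8-Prox1 muscles and 10.69, 9.78 and 10.26 in the AAV8-mCherry muscles. The groups did not overlap, and the control muscles were spread more widely, at 10.24 ± 0.46 against 11.21 ± 0.15 (SD, n = 3 each). The log2 fold change was 0.97 (SE 0.20, 95% interval 0.50 to 1.44), or 1.96-fold, with a limma adjusted p of 0.0335. Of the genes above background, 1.19% had a larger rise. The call was sensitive to leaving out 1 array: it was lost without AAV8-Prox1 replicate 1 (adjusted p = 0.0768), 2 (0.126) or 3 (0.0851) and without AAV8-mCherry replicate 3 (0.101). The log2 fold change over the 6 fits that left out 1 array ran from 0.74 to 1.19. In the fits that lost the call it was 0.89 to 1.03.

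Dcn encodes decorin, the class I relative of biglycan, which carries a single chain, binds along collagen fibrils and binds TGF-beta and myostatin. Its brightest probe gave 12.09, 11.73 and 12.01 with AAV8-Prox1 and 11.59, 11.13 and 11.52 with AAV8-mCherry. The groups did not overlap, with 11.94 ± 0.19 against 11.41 ± 0.25 (SD, n = 3 each). The log2 fold change was 0.53 (SE 0.13, 95% interval 0.22 to 0.84), or 1.44-fold, and the limma adjusted p of 0.0695 did not pass. It passed after a filter on dim probes (adjusted p = 0.0126), for the mean of the bright probes (0.0229) and with trend and robust estimation (0.00573). It passed in 0 of the 6 fits that left out 1 array (0.0592 to 0.204), and the mean of all its probes gave a log2 fold change of 0.25 (adjusted p = 0.131).

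The other Dcn probes gave smaller values. The next brightest read 8.37, 7.82 and 7.87 with AAV8-Prox1 against 7.49, 7.52 and 7.91. These groups overlapped, with a log2 fold change of 0.38 (SE 0.16, adjusted p = 0.323). The remaining 2 probes were at background in both groups.

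Lum encodes lumican, a class II keratan sulfate proteoglycan that regulates collagen fibril assembly, best known from the cornea. Its log2 signal was 9.09, 9.14 and 9.33 with AAV8-Prox1 and 8.58, 8.02 and 8.53 with AAV8-mCherry. Every AAV8-Prox1 muscle was above every control muscle, with 9.19 ± 0.13 against 8.38 ± 0.31 (SD, n = 3 each). The log2 fold change was 0.81 (SE 0.14, 95% interval 0.47 to 1.15), or 1.75-fold, with a limma adjusted p of 0.0173. Of the genes above background, 1.90% had a larger rise. The call was lost by a small margin without AAV8-Prox1 replicate 2 (adjusted p = 0.0583) or 3 (0.0589). The second Lum probe was at background. Kera, which encodes the corneal proteoglycan keratocan and is the next gene after Lum, was at background as well, at 6.54 ± 0.08 against 6.55 ± 0.04 (SD, n = 3 each).

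For Bgn, Dcn and Lum the exact two-sided permutation p of the brightest probe was 0.1, the smallest that 3 against 3 muscles can give. Groups that did not overlap were found for 3 of the 6 members above background, for 43.1% of all genes above background (22.5% with the AAV8-Prox1 muscles higher) and for 23.3% of all genes on the array.

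Fmod encodes fibromodulin, a class II member that binds type I collagen close to the lumican site and is abundant in tendon. It gave 7.97, 7.75 and 7.78 with AAV8-Prox1 and 8.03, 7.44 and 8.56 with AAV8-mCherry. The 3 AAV8-Prox1 muscles fell inside the range of the controls, which spanned more than 1 log2 unit, and the means were 7.83 ± 0.12 and 8.01 ± 0.56 (SD, n = 3 each). The log2 difference was -0.18 (SE 0.24, 95% interval -0.74 to 0.39, adjusted p = 0.846), and it was 0.10 without AAV8-mCherry replicate 3. The second Fmod probe was at background in both groups.

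Prelp encodes a class II protein with a basic amino-terminal region that binds heparin and collagen. Its log2 signal was 9.92, 9.51 and 9.17 with AAV8-Prox1 and 9.46, 9.05 and 9.41 with AAV8-mCherry. The groups overlapped, with 9.53 ± 0.38 against 9.31 ± 0.22 (SD, n = 3 each), a log2 difference of 0.23 (SE 0.19, 95% interval -0.21 to 0.66) and an adjusted p of 0.692. The difference was 0.03 without AAV8-Prox1 replicate 1 and 0.10 without AAV8-mCherry replicate 2, and 0.41 without AAV8-Prox1 replicate 3. Among these 6 members, Prelp and Ogn were the ones that varied more between AAV8-Prox1 muscles than between control muscles.

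Ogn encodes osteoglycin (mimecan), the class III member, found in bone and many connective tissues. It gave 8.52, 7.78 and 7.68 with AAV8-Prox1 and 7.67, 7.36 and 7.79 with AAV8-mCherry. A single muscle, AAV8-Prox1 replicate 1, stood above the rest, and the other 2 overlapped the controls. The means were 7.99 ± 0.46 and 7.61 ± 0.22 (SD, n = 3 each), with a log2 difference of 0.39 (SE 0.22, 95% interval -0.12 to 0.89, adjusted p = 0.491). Without AAV8-Prox1 replicate 1 the difference was 0.12. The other 2 Ogn probes were at background.

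The neighbours of Ogn on chromosome 13 were at background in all muscles. Aspn, which encodes asporin, a class I protein with an aspartate-rich start that binds TGF-beta and collagen, read 6.58 ± 0.03 against 6.60 ± 0.05. Omd, which encodes osteomodulin, a keratan sulfate proteoglycan of bone, read 6.55 ± 0.03 against 6.55 ± 0.09 (SD, n = 3 each). No fold is given for Aspn, Omd and Kera, since a probe at this level gives no measure of the transcript.

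**Figure D2:**
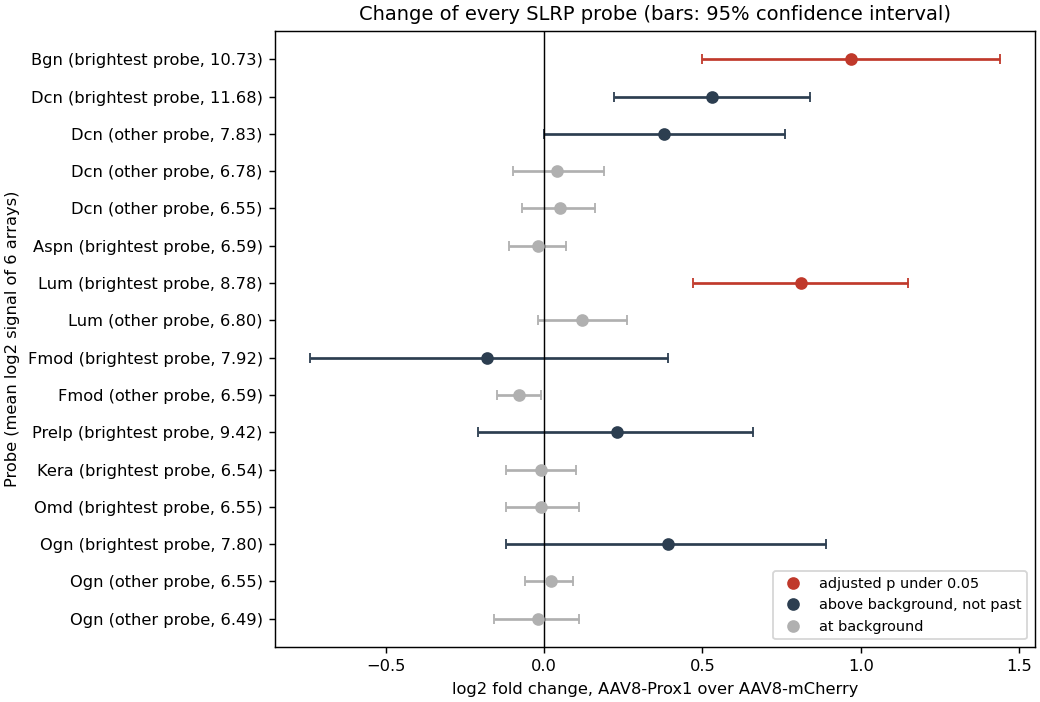
Log2 fold change of AAV8-Prox1 over AAV8-mCherry (horizontal axis) for all 16 SLRP probes, with 95% confidence intervals from limma and the mean log2 signal of each probe in its name. Of the 7 probes above background, 6 lie at or right of 0 and 2, of Bgn and Lum, pass the threshold, and the 9 grey probes at background lie near 0.

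The sizes of the changes were also compared between members. For each pair of the 6 members above background, the log2 signals were subtracted within each array and these differences were compared between groups. The differences did not overlap in 5 of the 15 pairs, and all 5 set Bgn, Dcn or Lum against Fmod or Prelp. The change of Bgn exceeded that of Fmod by 1.15 (SE 0.32), that of Lum exceeded Fmod by 0.99 (SE 0.23) and that of Dcn exceeded Fmod by 0.71 (SE 0.24), all on the log2 scale. Against Prelp, the excess was 0.58 (SE 0.29) for Lum and 0.30 (SE 0.22) for Dcn. Each of these 5 had an exact permutation p of 0.1, the smallest possible, and 0.3 after Benjamini-Hochberg adjustment over the 15 pairs, so no pair could pass. The differences overlapped for Bgn against Dcn, both of class I, at 0.44 (SE 0.24), and for the neighbours Dcn and Lum, at -0.28 (SE 0.13), while the class II pairs of Lum with Fmod and with Prelp were among the 5 without overlap.

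Muscles of the same group also differed in how much SLRP signal they gave. AAV8-mCherry replicate 2 had the lowest value of the 3 control muscles for 6 of 6 members above background. Its deviation from the control mean was -0.46 for Bgn, -0.28 for Dcn, -0.36 for Lum, -0.57 for Fmod, -0.26 for Prelp and -0.25 for Ogn on the log2 scale. The same array was lowest for 33.9% of all genes above background, near 1 gene in 3, so it was not low for genes at large. Among the AAV8-Prox1 muscles, replicate 1 was highest for 4 of 6 members, by 0.53 over the group mean for Ogn and 0.39 for Prelp, but lowest for Bgn and Lum.

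**Figure D3:**
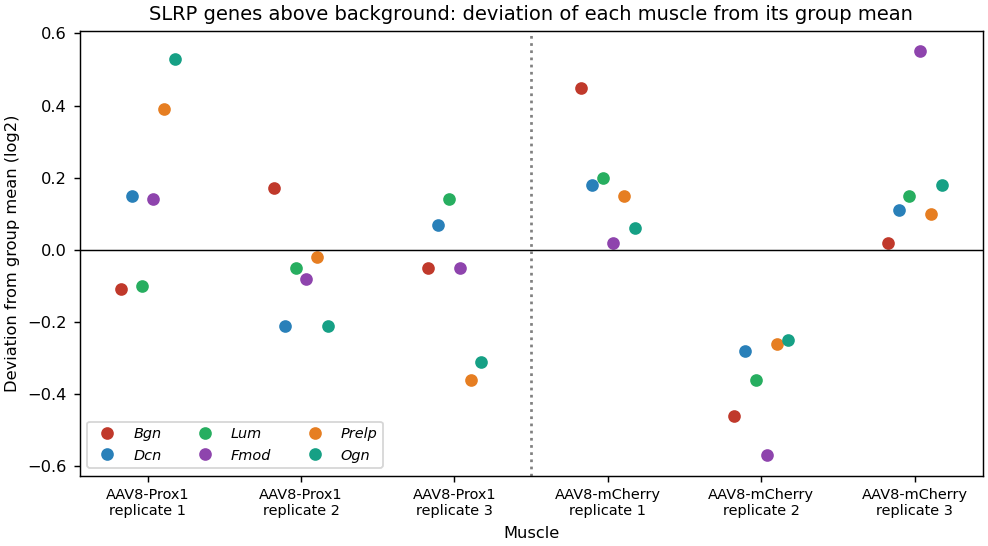
Deviation of each muscle from the mean of its own group (vertical axis, log2) for the 6 SLRP genes above background, with the 3 AAV8-Prox1 muscles on the left and the 3 AAV8-mCherry muscles on the right. All 6 genes lie below 0 in AAV8-mCherry replicate 2, and Prelp and Ogn lie on the same side of 0 in every muscle.

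Across the 6 muscles, deviations from the group mean gave a Pearson r of 0.13 to 0.93 for the 15 pairs of members, with a median of 0.56 and none below 0. These values describe 6 arrays that share 2 group means. The closest pair was Prelp and Ogn (0.93), followed by Bgn and Lum (0.79) and by Dcn and Lum (0.76), and the lowest value was that of Lum and Ogn (0.13). The median fell to 0.09 without AAV8-mCherry replicate 2, so the shared variation rested largely on that muscle.

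The genes whose log2 signals followed a member most closely over the 6 arrays were taken from 2215 genes above background with a range of at least 0.5, by Pearson r, which here includes the difference between groups. For Bgn they were Golim4 (0.993), Mgp (0.990), which encodes the matrix Gla protein, an inhibitor of calcification, and Hdac11 (0.988). For Dcn they were the ribosomal protein gene Rpl10a (0.993), Ppia (0.992) and Cd63 (0.989), and for Lum the protease inhibitor gene Cstb (0.993), Fnbp1 (0.989) and Eif1b (0.987). Those of Fmod were Nck1 (0.959), the cyclin D1 gene Ccnd1 (0.953) and Sema5a (0.946), those of Prelp were Ppid (0.948), Rbms3 (0.937) and its relative Ogn (0.934), and those of Ogn were Lsm10 (0.972), Mmd (0.966) and the myelin gene Pmp22 (0.959).

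Lists of genes that make, process, bind or answer to these proteoglycans were set beside them. Of the 7 further SLRP genes with a probe, none passed the limma threshold or an unadjusted p under 0.05, and only Chad, which encodes chondroadherin of cartilage and tendon, was above background. Chad read 7.78 ± 0.24 against 7.83 ± 0.54 (SD, n = 3 each; adjusted p = 0.972).

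Most genes of the enzymes that build the sugar chains were at background. For chondroitin and dermatan sulfate, 5 of 21 genes were above it, and 1 of these rose and 1 fell, beside 24.3% called of all genes above background and 9.44% of all genes. Medians of the log2 fold change were -0.02 over the 21 and -0.04 over the 5. B3galt6, which adds a galactose of the linker that joins chain and core protein, rose from 7.24 ± 0.04 to 7.51 ± 0.06 (log2 fold change 0.27, adjusted p = 0.0112, SD, n = 3 each). Chst15, a sulfotransferase for chondroitin sulfate, fell by 0.37 on the log2 scale, from 7.45 ± 0.07 to 7.07 ± 0.17 (adjusted p = 0.0396), but passed only without AAV8-Prox1 replicate 3 when single arrays were left out (adjusted p up to 0.132). Fam20b, the kinase for the linker's xylose, had a log2 difference of -0.32 (adjusted p = 0.0587). Of 8 genes for keratan sulfate, none passed by limma or by unadjusted p under 0.05. The only one above background was B4galt1, a galactosyltransferase, with a log2 difference of -0.25 (adjusted p = 0.354).

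Of 12 genes on the array for fibrillar collagens and the collagens beside them, which the SLRPs bind, 4 were above background. Of the 12, 0 were called by limma, and 3 were higher and 1 was lower by unadjusted p under 0.05. Among those by unadjusted p, only Col5a1 was above background, so the rest give no measure of their transcripts. The median log2 fold change was 0.04 over the 12 and 0.26 over the 4. Col5a1, which encodes a chain of the collagen that starts fibrils, had groups that did not overlap, with a log2 difference of 0.68 (adjusted p = 0.0537). Col1a1, the main chain of type I collagen, read 8.88 ± 0.15 against 8.52 ± 0.65 (SD, n = 3 each; adjusted p = 0.673). Col6a1 differed by 0.16 (adjusted p = 0.805). The probes of Col1a2 and Col3a1 were at background, so these transcripts were not measured well here.

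Of 16 genes for collagen cross-linking and processing, 0 were called by limma, and 3 were higher and 0 lower by unadjusted p under 0.05. The log2 difference was 0.30 for P4ha2, a prolyl hydroxylase (adjusted p = 0.062), 0.56 for Lox, the lysyl oxidase (adjusted p = 0.13), and 0.18 for Plod2, a lysyl hydroxylase (adjusted p = 0.317). Of 12 genes for proteases that cut SLRPs and their inhibitors, Timp2 alone passed, beside 9.44% of all genes and 24.3% of all genes above background. Timp2, an inhibitor of metalloproteinases, rose from 9.57 ± 0.17 to 10.10 ± 0.08 (log2 fold change 0.53, adjusted p = 0.0109, SD, n = 3 each) and passed in all 6 fits that left out 1 array. Timp3 (0.10, adjusted p = 0.235) and Timp1 (0.24, adjusted p = 0.296) did not pass.

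Of 17 genes on the array for ligands that SLRPs are known to bind, 4 rose and 1 fell, all 5 among the 12 above background, where 12.9% of all genes rose and 11.3% fell. Their log2 fold change had a median of 0.06 over the 17 and 0.35 over the 12. Tgfb3 encodes a TGF-beta isoform and rose from 8.74 ± 0.02 to 9.20 ± 0.11 (log2 fold change 0.46, adjusted p = 0.00314). Ccn2, the connective tissue growth factor gene, rose from 10.18 ± 0.01 to 10.85 ± 0.20 (0.67, adjusted p = 0.00488), and its second probe gave 0.64 (adjusted p = 0.036). Both genes passed in all 6 fits that left out 1 array. C1qc, for a chain of complement C1q, rose by 0.34 (adjusted p = 0.025) and passed in 3 of those fits, failing without any 1 of the AAV8-Prox1 arrays (0.0566 to 0.0812). The 2 other calls of the list were Tgfb1, at 7.90 ± 0.35 against 7.13 ± 0.06 (SD, n = 3 each; 0.77, adjusted p = 0.0268), and Pdgfb, which fell by 0.38 on the log2 scale (adjusted p = 0.0392). They are named because they complete the count, and each passed in 1 of the 6 fits, Tgfb1 without AAV8-Prox1 replicate 1 and Pdgfb without AAV8-Prox1 replicate 3.

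Receptors for SLRPs and for these ligands gave 2 calls among 16 genes, both higher: Cd14 (adjusted p = 0.013), which failed without AAV8-Prox1 replicate 2 (0.0546), and P2rx4 (adjusted p = 0.0275), which passed only without AAV8-mCherry replicate 3 when single arrays were left out. Both have a mean log2 signal under 7 over the 6 arrays, so no fold is given. Of the 7 receptor genes above background 0 were called. Of all genes 9.44% were called, and of all genes above background 24.3%. Among 10 measured genes that answer to TGF-beta, Ccn2 was the single call. Tgfbi (0.33, adjusted p = 0.145) and Acta2 (-0.26, adjusted p = 0.165) came next, in opposite directions, and for both the groups did not overlap. The median log2 fold change was -0.06 over the 10 and 0.12 over the 5 above background, so its sign rests on probes at background.

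Markers of the cell types in muscle were counted in the same way, because in whole muscle more cells of a type and more RNA per cell cannot be told apart. Of 15 measured markers of fibroblasts and fibro-adipogenic progenitors, 4 rose and 0 fell, 3 of the 4 among the 9 above background. Of all genes 5.23% rose, and of all genes above background 12.9%. The median log2 fold change was 0.21 over the 15 and 0.35 over the 9. Mfap5, a microfibril gene, rose from 7.51 ± 0.16 to 8.55 ± 0.24 (1.04, adjusted p = 0.00325, SD, n = 3 each). Hsd11b1 (0.35, adjusted p = 0.0381) and Cd248 (0.41, adjusted p = 0.0405) rose less and each passed in 1 of 6 fits that left out 1 array, without AAV8-Prox1 replicate 2 and without AAV8-mCherry replicate 1, and the other call was Cd34, with a mean under 7. Pdgfra, the defining receptor of these progenitors, read 7.45 ± 0.24 against 7.24 ± 0.01 (adjusted p = 0.422). The mean log2 signal of the 9 markers above background was 8.01 to 8.25 in the AAV8-Prox1 muscles and 7.55 to 7.89 in the control muscles, and that of the 6 SLRP genes was 9.52 to 9.78 against 8.80 to 9.35.

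The members were also set against this marker mean within each array. Bgn was higher by 0.59 on the log2 scale (3.12 ± 0.25 against 2.53 ± 0.29) and Lum by 0.43 (1.09 ± 0.24 against 0.66 ± 0.18), without overlap between groups. Fmod differed by -0.56 (-0.26 ± 0.03 against 0.29 ± 0.50, SD, n = 3 each), also without overlap, and by -0.28 without AAV8-mCherry replicate 3. The exact permutation p was 0.1 for each of the 3, the smallest possible and not adjusted over the 6 members, so none could pass. Dcn differed by 0.15, Prelp by -0.15 and Ogn by 0.01, with overlapping groups.

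Of 9 genes listed as tenocyte markers, Col22a1 was the single call (0.77, adjusted p = 0.00108), beside 9.44% called of all genes. It is a collagen gene of the muscle-tendon junction and need not mark tendon cells. The median log2 fold change was -0.01 over the 9 and 0.09 over the 4 above background. Scx, the transcription factor that defines tendon cells, had a log2 difference of -0.26 (adjusted p = 0.169), and Tnmd was at background. The mean of the 4 tenocyte markers above background was 8.02 to 8.15 against 7.72 to 8.09. Besides Col22a1 and Scx, these were Comp (0.12, adjusted p = 0.863) and Chodl (0.07, adjusted p = 0.776). Col22a1 thus had by far the largest change of the 4, so their mean rests largely on it.

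Of 8 macrophage markers, Mrc1 was called (0.44, adjusted p = 0.0341), but when single arrays were left out it passed only without AAV8-Prox1 replicate 2. Of all genes 9.44% were called, and of all genes above background 24.3%. Lyz2, the other macrophage marker above background, differed by 0.67 (adjusted p = 0.109), with groups that did not overlap. The mean of the 2 macrophage markers above background was 8.12 to 8.42 against 7.53 to 7.90, and Cd68 has no probe with its symbol. The median log2 fold change was 0.07 over the 8 and 0.56 over the 2, and the rest were at background. The part of any of these cell types in the SLRP values was not tested.

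The means of 3 other lists were lower in every AAV8-Prox1 muscle than in every control muscle, with few genes called. Of 8 endothelial markers 1 fell, Flt1, a VEGF receptor gene, by 0.51 on the log2 scale (adjusted p = 0.0206), which passed only without AAV8-mCherry replicate 1 when single arrays were left out. Esam differed by -0.45 (adjusted p = 0.0524) and Pecam1 by -0.41 (adjusted p = 0.0839). Of all genes 4.21% fell, and of all genes above background 11.3%. The endothelial mean was 9.18 to 9.43 against 9.59 to 9.90. The mean of the pericyte and smooth muscle markers was 8.56 to 8.61 against 8.69 to 8.80, with no call among 7 by limma and 3 lower by unadjusted p under 0.05. Of 7 fibre genes, Myh1 (-1.36), Tnnt3 (-1.2) and Myh4 (-1.04, all log2 fold changes) fell, and all 3 encode fast-fibre isoforms. When single arrays were left out, Myh4 passed in 2 of the 6 fits, without AAV8-Prox1 replicate 1 or 3. The mean of the 7 was 12.44 to 12.68 against 13.08 to 13.14. The other 4 did not pass: Acta1 (0.07), Ckm (-0.04), Pvalb (-0.05) and Mybpc2 (-0.11, all log2 differences). The lower mean of the 7 thus rests mostly on Myh1, Tnnt3 and Myh4. Markers of satellite cells, Schwann cells and adipocytes had no call by limma and none by unadjusted p under 0.05, and the 5 adipocyte markers were all at background.

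**Figure D4:**
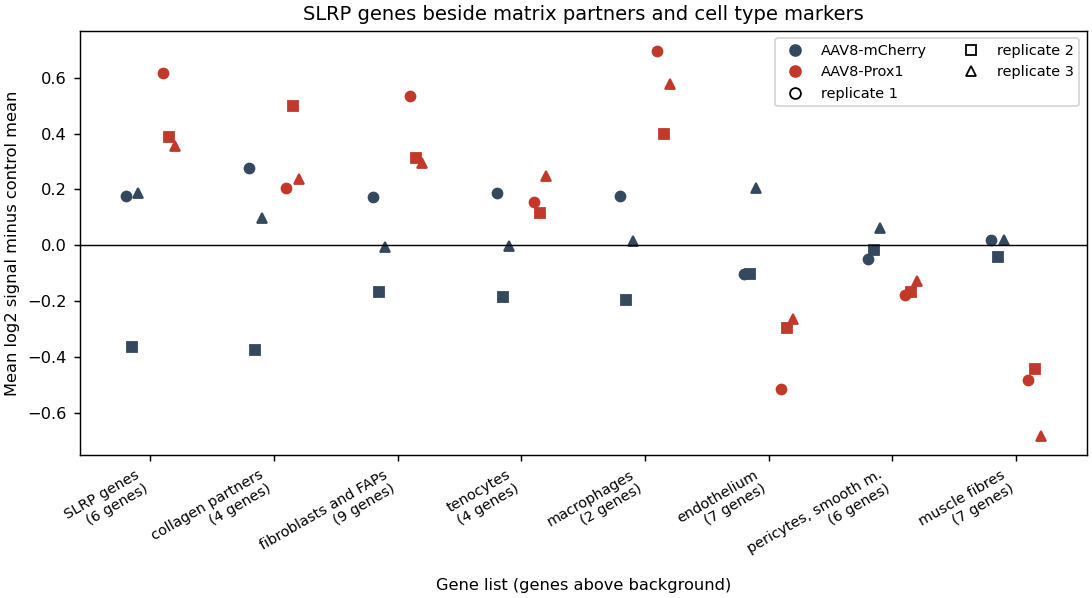
Mean log2 signal of the genes above background in each list, minus the mean of the 3 AAV8-mCherry muscles (vertical axis), with 1 point per TA muscle. The SLRP, fibroblast and macrophage means of the AAV8-Prox1 muscles lie above all control muscles, the macrophage mean from 2 genes. Those of collagen partners and tenocytes overlap the controls, and those of endothelium, pericytes and muscle fibres lie below. The muscle fibre mean lies lower mostly through Myh1, Tnnt3 and Myh4, which encode fast-fibre isoforms.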

How the data were processed

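RNA of 6 TA muscles, 3 per group, was hybridised to Illumina Mouse BeadChips. The authors checked the arrays in GenomeStudio, quantile-normalized them in Chipster and deposited log2 values, which were used as deposited. A background correction is not stated. Quantile normalization gives all arrays the same distribution, so a shift shared by most genes cannot be seen. A second deposited table, with detection p-values beside unnormalized signals, was left out because its 12 columns could not be tied to samples by name.

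Of 45281 probes, 34885 carry 1 symbol, 18 several and 10378 none. The brightest probe stood for a gene. The comparison used lmFit and eBayes of limma 3.58.1 (R 4.3.3) without a block, over all probes, with Benjamini-Hochberg adjustment. Folds were left out for genes with a mean log2 signal under 7 over the 6 arrays. Folds are antilogs of log2 differences. Arrays of the 2 groups with equal replicate numbers did not deviate together (r of -0.18, 0.05 and -0.12 over probes above background), so these numbers were not used to pair muscles.

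The members and the 18 gene lists, which hold 194 further genes of which 177 have a probe, were chosen with earlier results of these data known. Genes named from a list were among its 3 genes above background with the smallest adjusted p, though not every list has all of these named. Also named were the markers Pdgfra, Pecam1, Cd68, Tnmd and Scx, and the 3 genes most like each member. Tgfb1, Pdgfb, Cd14, P2rx4, Cd34, Chad, Comp, Col1a2, Col3a1, Acta1, Ckm, Pvalb, Mybpc2 and Prox1 are named outside this rule, after their values were seen. Alternatives were the replicate block, trend and robust estimation, a filter on dim probes, means of all or of bright probes, a minimum log2 fold change of 0.5, centring on 9 reference genes and leaving out each array. Centring on the mean of the reference genes and adjustment over the brightest probes alone were added after seeing the data. The fit was tested on simulated data.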

Additional observations from a re-analysis of the deposited data

How the results depend on the processing

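The median log2 fold change of the 6 SLRP genes above background was 0.46. The block, trend and robust estimation, the dim-probe filter, the minimum change and the adjustment over brightest probes cannot change this value. Centring shifts all genes alike and gave 0.47 (median of the reference genes) and 0.43 (their mean). The median was 0.24 with the mean of all probes and 0.42 with that of bright probes. It was 0.29 without AAV8-Prox1 replicate 1 and 0.33 to 0.56 without any other array. In these last settings, which could change it, the median stayed above 0 and moved by less than 0.24, the pooled SD between muscles of the mean of these genes. Leaving out 1 array in turn, 0 to 2 of the members passed, 11 to 18 list genes instead of 20, 6 to 11 pairs instead of 5 had differences that did not overlap, which with 2 muscles in a group is reached more easily, and the median within-group r was 0.09 to 0.74 instead of 0.56. Fmod ranged from -0.46 to 0.10, against -0.18 with all arrays, and changed sign without AAV8-mCherry replicate 3. With the mean of all probes 10 pairs did not overlap. A filter on dim probes gave 31 list genes, since fewer probes were tested, and a minimum log2 fold change of 0.5 gave 9 list genes and 631 genes on the array instead of 1799. Centring each array on the median of 9 reference genes left 0 members by limma, 1 list gene and 76 array genes (68.4% of them higher, against 55.4%). In that setting the centre was the level of B2m, Hprt or Tfrc depending on the array. The standard error of Bgn rose from 0.20 to 0.32, while its log2 fold change was 0.98 against 0.97. Centring on the mean of the same genes, chosen after seeing the data, called Bgn, Dcn and Lum, with 46.7% of all calls higher. With the replicate number as a block, 1280 array genes and 2 members, Dcn and Lum, passed. Bgn was lost (adjusted p = 0.103) and Dcn gained (0.00733), and the numbers are not known to pair the muscles. With 3 muscles per group, differences within the intervals given for Fmod, Prelp and Ogn could not be detected, and for Aspn, Kera and Omd the signal over background sets the limit.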
